A study of Mus musculus with 2 samples.

Results

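The NAD synthesis enzymes of the mouse kidney are described here by cell type, in scRNAseq libraries of 1 control and 1 ischemic kidney. The group holds 10 genes of the 32285 listed, chosen by symbol: Nampt, Naprt, Nadsyn1, Nmnat1, Qprt, Haao, Kynu, Kmo, Afmid and Nnmt. All 10 were found in the counts, each under a single identifier. Both kidneys were labelled as wildtype, male and C57BL/6J, at 19 weeks of age. The ischemic kidney was the left one, clamped for 27 min and reperfused for 24 h, and the control was the uninjured kidney of the other side. A contralateral kidney of an operated animal is not a kidney of an unoperated one. With 1 kidney in each condition there was no replicate, so no test between conditions was made. All intervals are exact 95% intervals that cover counting error only, not the spread between animals or between cells.

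NAD carries electrons in oxidative metabolism and is consumed by sirtuins, by poly(ADP-ribose) polymerases and by CD38. Cells rebuild it by 3 routes: from nicotinamide by salvage, from nicotinic acid by the Preiss-Handler route, and from tryptophan by the de novo route through kynurenine. The liver and the kidney are known as the main sites of de novo synthesis, and in the kidney its enzymes are known from the proximal tubule (PT).

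The salvage enzyme is Nampt (chr12:32819545-32853349, plus strand), which makes nicotinamide mononucleotide from nicotinamide and is regarded as rate limiting. Naprt (chr15:75890956-75894481, minus strand) starts the Preiss-Handler route. In the de novo route Afmid (chr11:117825924-117839908, plus strand) hydrolyses formylkynurenine, Kmo (chr1:175620381-175662116, plus strand) hydroxylates kynurenine, Kynu (chr2:43555329-43682715, plus strand) cleaves hydroxykynurenine, Haao (chr17:83831156-83847963, minus strand) opens the ring of hydroxyanthranilate and Qprt (chr7:127107114-127122226, minus strand) turns quinolinate into nicotinic acid mononucleotide. Nmnat1 (chr4:149467572-149485202, minus strand) adds the adenylate group in the nucleus for all routes, and Nadsyn1 (chr7:143795584-143822849, minus strand) amidates the product of the Preiss-Handler and de novo routes. Nnmt (chr9:48591877-48605153, minus strand) methylates nicotinamide and so removes the substrate of salvage. Positions are those of GENCODE M21 on GRCm38, the assembly also called mm10, which the submitters' processing notes name as their build. Naprt overlaps Eef1d on the same strand, so its counts are uncertain where reads came from the shared part. Nampt and Afmid overlap Gdap10 and Gm20708 in that annotation, which were not among the genes counted.

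The 250 bases before the RefSeq start (GRCm38.p6) of 4 members are printed because Haao and Kmo were the pair of members most alike across cell types, Qprt is in the same route but differed from them after ischemia, and Nampt was found in all cell types. The sequences run 5′ to 3′ on the gene's strand, and capitals mark the motifs searched on both strands: GGTCAAAG, a half-site of the kind HNF4 and PPAR factors bind; GTTAAT, a half-site of HNF1; GGGCGG, the GC box; and TATAAA, the TATA box. They are Haao at chr17:83846791-83847040, minus strand, Kmo at chr1:175631943-175632192, plus strand, Qprt at chr7:127122030-127122279, minus strand, and Nampt at chr12:32820085-32820334, plus strand. The RefSeq starts used lie inside the GENCODE spans given above. The windows of Haao, Kmo and Nampt are thus wholly within those spans, and that of Qprt in part.
Haao: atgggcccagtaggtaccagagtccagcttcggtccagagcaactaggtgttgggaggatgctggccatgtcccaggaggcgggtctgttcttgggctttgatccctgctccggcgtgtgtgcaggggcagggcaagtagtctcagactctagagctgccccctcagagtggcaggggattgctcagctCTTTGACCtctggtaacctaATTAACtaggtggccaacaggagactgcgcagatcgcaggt
Kmo: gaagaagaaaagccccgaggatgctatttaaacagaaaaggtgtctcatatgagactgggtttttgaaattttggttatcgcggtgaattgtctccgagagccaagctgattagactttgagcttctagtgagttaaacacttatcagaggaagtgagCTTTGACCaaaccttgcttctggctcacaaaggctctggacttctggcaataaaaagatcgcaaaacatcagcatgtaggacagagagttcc
Qprt: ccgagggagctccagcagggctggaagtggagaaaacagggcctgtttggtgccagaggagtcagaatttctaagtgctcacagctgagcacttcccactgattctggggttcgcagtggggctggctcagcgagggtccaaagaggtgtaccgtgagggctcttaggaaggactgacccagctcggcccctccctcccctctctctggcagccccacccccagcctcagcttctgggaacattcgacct
Nampt: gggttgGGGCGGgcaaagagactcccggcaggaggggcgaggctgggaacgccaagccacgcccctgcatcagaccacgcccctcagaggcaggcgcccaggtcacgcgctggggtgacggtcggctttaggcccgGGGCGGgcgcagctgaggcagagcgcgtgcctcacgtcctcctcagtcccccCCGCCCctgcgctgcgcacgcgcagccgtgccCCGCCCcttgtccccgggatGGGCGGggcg

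The windows of Haao and Kmo each held GGTCAAAG once, as its reverse complement, and 0.834% of the 32851 windows of the same length held it. The motifs were chosen after the levels had been seen, and a match is a description of the letters, not a bound site. Haao also held GTTAAT once, as did 6.43% of windows. Nampt held 5 copies of GGGCGG, 2 of them as the reverse complement, a motif in 32.7% of windows, and neither half-site. None of the 4 motifs was in the Qprt window, and TATAAA, found in 12.4% of all windows, was in none of the 4 printed. CpG counts were 6 for Haao, 5 for Kmo and 6 for Qprt, against 27 for Nampt. Entries were present for 7 of the 10 members. Among those not printed, the window of Afmid, also in the de novo route, held neither half-site, 1 copy of GGGCGG and 15 CpG. The windows of Nadsyn1 and Nmnat1 held neither half-site.

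The control library held 12586 kept cells with a median of 3839 UMIs, and the ischemia library 13116 with a median of 2138.5. Clusters were named only from marker lists, with the ending "-like", and 15 of 18 clusters took a name of 13 types, for 7088 control and 6435 ischemia cells. The largest unnamed cluster (cluster 0) held 10464 cells with a median of 836 UMIs. PT-like cells were clusters 1, 2 and 5, with 3898 control and 2786 ischemia cells. CD-PC-like cells (collecting duct principal cells) also carried connecting tubule genes. CPM here are the UMIs of a gene in the cells summed, scaled to a common total of UMIs. S100g was at 14800 CPM in control CD-PC-like and 9029 CPM in control DCT-CNT-like cells (distal convoluted and connecting tubule). The whole DCT-CNT list summed to 33033 and 25195 CPM in the same cells, while Slc12a3 of that list was at 68.95 and 5322 CPM. Values of CD-PC-like cells may thus take in connecting tubule cells, which was not tested. CD-PC-like cells carried intercalated cell markers too, summed to 2971 CPM in control CD-PC-like cells and 18.9 CPM in control DCT-CNT-like cells. Of the intercalated list, Aqp6 was among the 10 top genes of the CD-PC-like cluster. Slc26a4, Hmx2, Atp6v1g3 and Atp6v0d2 were among those of the IC-like (intercalated) cluster. IC-like cells may thus leave out part of the intercalated cells, which was not tested. The libraries shared 88 barcodes, 58 of them among kept cells. The neutrophil-like cluster held 19 control cells, under the minimum of 30, and was left out of ratios. Across a cell type, a fold change of summed UMIs cannot tell fewer expressing cells from less RNA in each.

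In the control kidney the de novo enzymes were carried by PT-like cells. These cells held 57.6% of all control UMIs, but 87.2% of Kmo UMIs, 88.8% of Kynu, 86.7% of Haao, 86.4% of Qprt and 84.0% of Afmid UMIs. Naprt and Nadsyn1 followed with 76.4% and 73.5%. Nmnat1 was spread like RNA in general, with 58.2% of its UMIs in PT-like cells. Apart from Nnmt, Nampt had the lowest share in PT-like cells, at 43.9% (interval 42.7% to 45.1%), below the share of all UMIs.

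**Figure D1:**
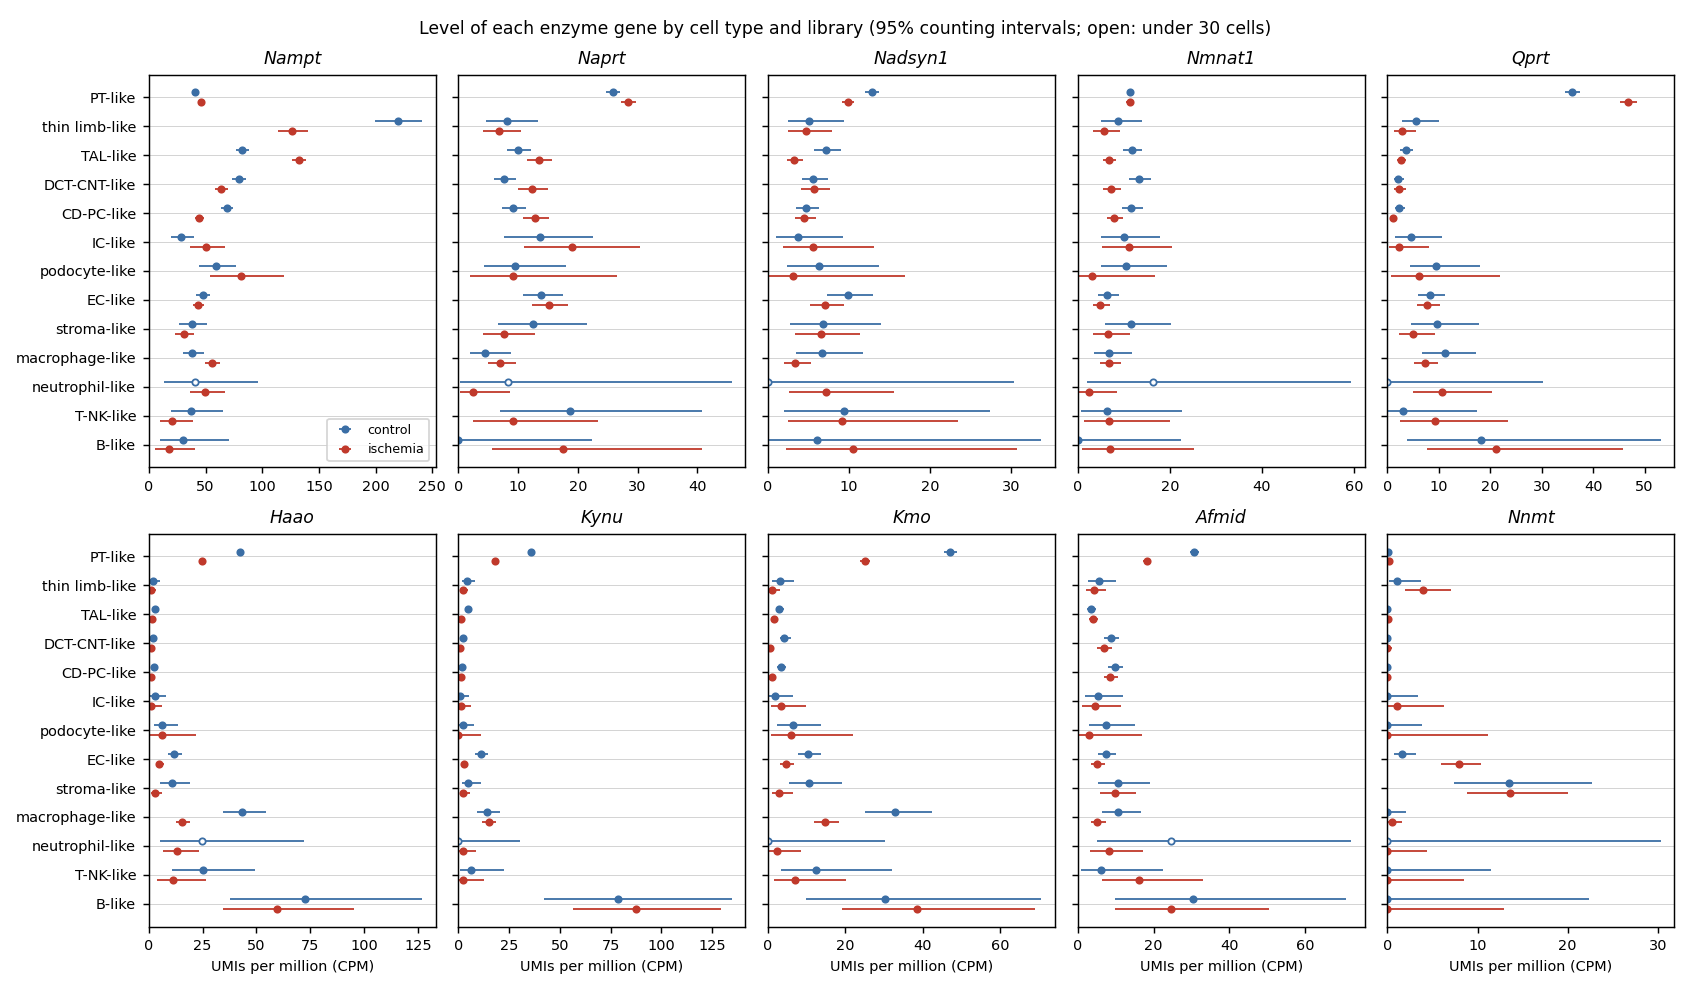
Levels of the 10 genes in CPM (x axis, linear, a scale of its own in each panel) by cell type (y axis) and library, with points for the summed cells, bars for 95% counting intervals and open points for groups under 30 cells. Haao, Kynu, Kmo and Afmid sit lower in ischemia PT-like cells (red) than in control ones (blue), Qprt sits higher, and Nampt is highest in thin limb-like cells of the control library.

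After ischemia, 0 of the 9 members with at least 50 UMIs in PT-like cells passed 2-fold, against 6.88% of 13539 genes tested that were at least 2-fold higher and 3.86% that were at least 2-fold lower. Between these limits the route split. Haao, Kynu, Kmo and Afmid were at about 0.51 to 0.59 of control. Qprt, Nampt and Naprt were at or above control, Nadsyn1 was at 0.771, and the interval of Nmnat1 held 1. The median log2 ratio of the 9 was -0.38, against 0.11 over all genes tested in these cells.

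Kynu had 2556 control UMIs (35.6 CPM) and 1224 ischemia UMIs (17.98 CPM), a ratio of 0.505 (interval 0.472 to 0.541). This was the lowest of the members in PT-like cells and lay just short of the 2-fold limit. Kmo was at 47.2 and 25.05 CPM, a ratio of 0.531 (0.501 to 0.563). Haao was at 42.5 and 24.7 CPM (ratio 0.581, 0.547 to 0.617). Afmid was at 30.7 and 18.2 CPM (ratio 0.593, 0.553 to 0.637). For each of these enzymes the interval lay well below 1.

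Qprt, which acts after Haao in the same route, was at 35.96 and 46.9 CPM (2584 and 3189 UMIs), a ratio of 1.30 (1.24 to 1.37). Nampt was at 41.0 and 46.0 CPM (ratio 1.12, 1.07 to 1.18), and Naprt at 25.8 and 28.4 CPM (ratio 1.10, 1.03 to 1.17). Nadsyn1 was at 12.8 and 9.86 CPM (ratio 0.771, 0.697 to 0.852). Nmnat1 was at 11.4 and 11.3 CPM, a ratio of 0.987 with an interval (0.894 to 1.09) that holds 1. Nnmt had 1 control and 13 ischemia UMIs in these cells.

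PT genes in general were lower as well. The 12 PT markers had ratios from 0.444 to 0.931 with a median of 0.540, and 4 of them were at or under 0.5. Slc34a1, the phosphate carrier of the PT, had a ratio of 0.488, while Havcr1, the injury gene that encodes KIM-1, went from 513 to 28455 UMIs. Mitochondrial UMIs made up 26.5% of control and 22.5% of ischemia PT-like UMIs. With mitochondrial UMIs left out of the totals Kynu was at 0.479, past 2-fold. The part of the marker genes' lower level in the ratios of the enzymes was not tested.

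When the libraries were clustered without integration, ratios in the cells then named PT-like were 0.776 for Kynu, 0.961 for Kmo, 0.893 for Haao, 0.898 for Afmid and 0.972 for Qprt. Only 289 of the 2786 ischemia PT-like cells kept that name there, against 2058 of 3898 control cells, and 2494 and 1833 fell in unnamed clusters.

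The PT-like clusters differed in segment genes. Cluster 2 was rich in Slc5a12 (1529 CPM in control), a gene of early PT, and cluster 5 in Slc7a13 (176 CPM in control), a gene of the S3 segment. Cluster 1 led in neither list. No cluster was set apart by the injured tubule list. These clusters were made from the same cells, so levels between them are descriptions.

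In control cells Kynu was at 12.9 CPM in cluster 1, 39.1 CPM in cluster 2 and 44.7 CPM in cluster 5. It had the widest range of the 9 members among these clusters in control, with cluster 1 apart from the others. Cluster 1 was also the shallowest, with a median of 7319.5 UMIs over both libraries, against 24691 in cluster 2 and 35396 in cluster 5. The part of depth in this range was not tested. Haao was at 52.3 CPM in cluster 5 and 32.0 CPM in cluster 2, a ratio of 1.63 (1.504 to 1.77). Qprt (1.46), Nmnat1 (1.39), Nampt (1.39), Naprt (1.36), Kmo (1.34), Afmid (1.17) and Kynu (1.14) had ratios of S3 to early cluster above 1 too. Nadsyn1 was level between the segments, at 0.982 (0.850 to 1.13).

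The order of Kynu between clusters 2 and 5 was reversed in the ischemia library. Its ratio of ischemia to control was 0.377 (0.334 to 0.424) in cluster 5, past 2-fold, beside 0.553 in cluster 2 and 0.651 in cluster 1. In the ischemia library its level was thus 16.9 CPM in cluster 5 and 21.6 CPM in cluster 2, a ratio of 0.779 (0.687 to 0.882). Kmo in cluster 5 (0.497) and Afmid in cluster 1 (0.498) also reached 2-fold, by a small margin. At least 2-fold lower were 4.02% of genes tested in cluster 5, 3.28% in cluster 2 and 2.34% in cluster 1.

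Haao had like ratios of 0.640, 0.544 and 0.609 in clusters 1, 2 and 5. Qprt was above control in each, with 1.20 (1.07 to 1.34), 1.48 (1.36 to 1.60) and 1.24 (1.13 to 1.35). Nampt was above control in cluster 5 alone, at 1.23 (1.14 to 1.33), and its intervals in clusters 1 and 2 held 1. Havcr1 was highest in cluster 5 as well, at 738 CPM in ischemia, against 253 CPM in cluster 2 and 272 CPM in cluster 1.

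**Figure D2:**
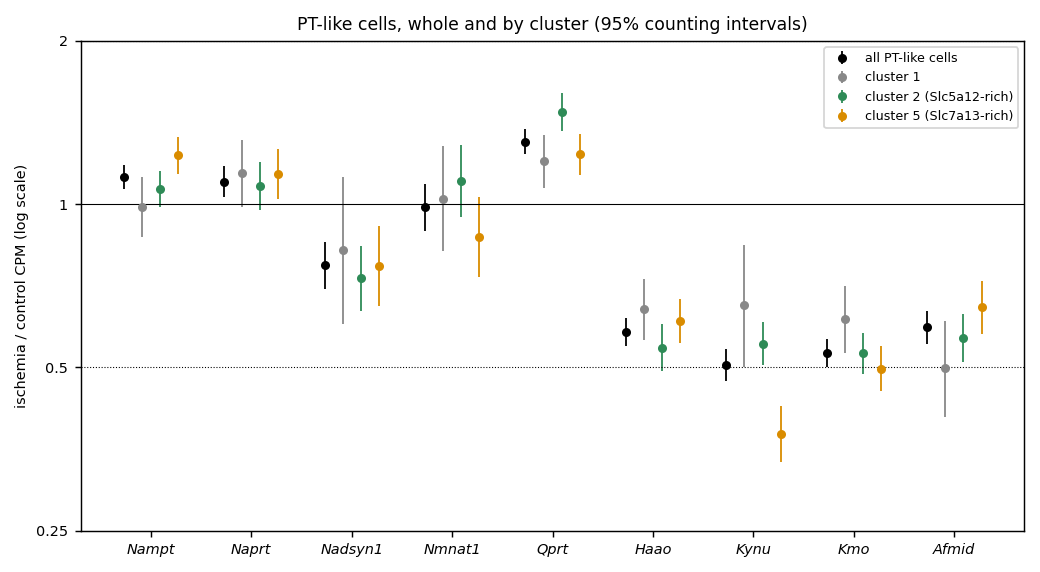
Ratio of ischemia to control CPM (y axis, log scale) of the 9 members with at least 50 UMIs in PT-like cells, for all PT-like cells (black) and for each cluster (colours), with 95% counting intervals; dotted lines mark 2-fold. Haao, Kynu, Kmo and Afmid lie below 1 and Qprt above 1 in all 3 clusters, and Kynu in cluster 5 is at 0.377.

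Within the ischemia library, PT-like cells were split by whether they held a Havcr1 UMI once each cell was thinned to 1000 UMIs. Of the cells deep enough, 622 were positive and 2118 negative, and 46 were left out. Havcr1 was at 418 CPM over all ischemia PT-like cells, so many cells that express it can lack a Havcr1 UMI at this depth. In the positive cells Slc34a1 was at 0.537 times its level in the negative ones. The median depth was 15846 UMIs in positive and 18966 UMIs in negative cells. The gap was wider in cluster 2, at 13701 and 31413 UMIs. It was 7363 and 8449.5 UMIs in cluster 1, and 46680.5 and 42541 UMIs in cluster 5.

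Nampt was at 60.0 CPM in Havcr1-positive and 41.6 CPM in negative cells, a ratio of 1.44 (1.34 to 1.56). It was the only one of the 9 members with at least 50 UMIs whose interval lay above 1 here. Within clusters the Nampt ratio was 1.004 (0.767 to 1.30) in cluster 1, 1.31 (1.14 to 1.49) in cluster 2 and 1.35 (1.21 to 1.499) in cluster 5, where 35.0% of cells were positive against 19.4% and 19.8% in clusters 1 and 2. Kynu was at 12.1 and 19.9 CPM (ratio 0.607, 0.518 to 0.708) and Kmo at 17.0 and 27.6 CPM (ratio 0.616, 0.540 to 0.701). Afmid (0.738) and Haao (0.762) were lower in positive cells as well. In cluster 1 alone the intervals of Kynu, Haao and Afmid held 1. Qprt was level across this split, at 48.6 and 46.3 CPM (ratio 1.05, 0.966 to 1.14), though it was above control in PT-like cells as a whole. Naprt (0.972), Nadsyn1 (0.998) and Nmnat1 (0.947) had intervals that held 1.

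**Figure D3:**
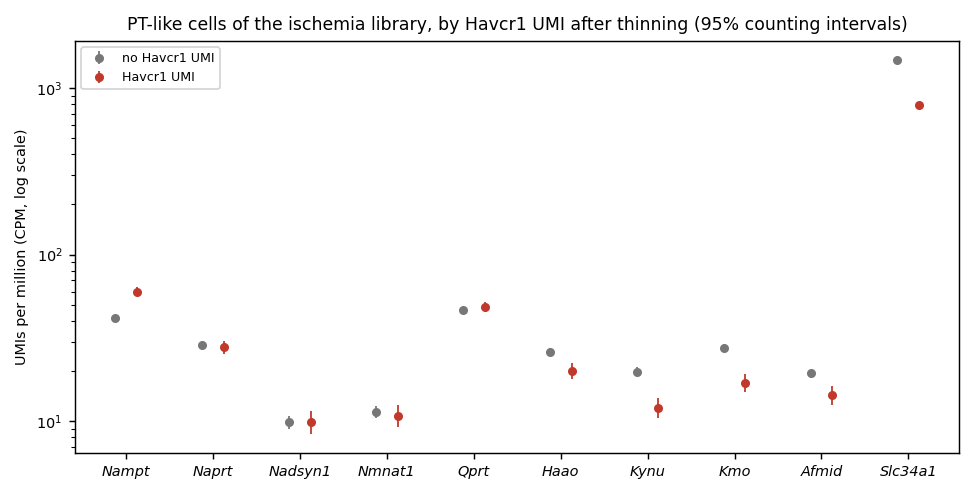
Levels in CPM (y axis, log scale) of 9 members and Slc34a1 in PT-like cells of the ischemia library with (red) and without (grey) a Havcr1 UMI after thinning, with 95% counting intervals. Nampt is higher and Haao, Kynu, Kmo, Afmid and Slc34a1 are lower in cells with a Havcr1 UMI, and Qprt is level.

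The salvage gene Nampt was found in all types. In control it was at 220 CPM in thin limb-like cells (interval 199 to 241), apart from all other types by counting error alone. TAL-like cells (thick ascending limb) at 82.2 CPM, DCT-CNT-like at 79.5 CPM and CD-PC-like at 68.7 CPM came next, each not apart from its neighbour in this order. PT-like cells were at 41.0 CPM and IC-like cells (intercalated) at 28.2 CPM.

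The ratio of ischemia to control for Nampt differed in direction between segments, although no type passed 2-fold. Over all named types 5.21% of gene and type pairs tested were at least 2-fold higher and 4.56% at least 2-fold lower. TAL-like cells were at 82.2 and 132 CPM (ratio 1.61, 1.48 to 1.75). Thin limb-like cells were at 220 and 127 CPM (0.577, 0.4999 to 0.665). In these cells the summed stroma markers went from 48.5 to 561 CPM, the urothelium markers from 235 to 0 CPM and the PT markers from 1202 to 357 CPM. The part of this mix in the thin limb-like ratio was not tested. CD-PC-like cells were at 68.7 and 44.4 CPM (0.646, 0.573 to 0.728), and DCT-CNT-like cells at 79.5 and 63.6 CPM (0.800, 0.711 to 0.899). Macrophage-like cells were at 38.5 and 55.9 CPM (1.45, 1.11 to 1.91). IC-like cells had 31 and 45 UMIs (1.78, 1.10 to 2.92), and the summed TAL markers in them went from 557 to 2009 CPM; the part of TAL RNA in this ratio was not tested. With a minimum of 1000 UMIs a cell the ratio was 0.849 in the cells then named IC-like, which held 279 and 196 Nampt UMIs.

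A few cells carried the higher level in TAL-like cells. In the ischemia library 41 of 487 TAL-like cells held 10 or more Nampt UMIs each, with up to 72 in a cell, and together 994 of the 1663 UMIs. In control 5 of 496 cells did, with 59 of 846 UMIs. Without these cells the level was 77.5 CPM in control and 60.6 CPM in ischemia, so the direction turned; these cells were picked by the gene itself. The median TAL-like cell with 10 or more held 37509 UMIs in all, against 23171.5 in the other ischemia cells, and the limit of 10 was chosen after the values were seen. With a mitochondrial limit of 25% the ratio in TAL-like cells was 1.17.

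Splits by claudin genes were chosen after the values were seen. Cldn10 is known mainly from the medullary thick ascending limb. TAL-like cells with at least 5 Cldn10 UMIs were at 91.1 CPM of Nampt in control (301 of 496 cells) and 236 CPM in ischemia (137 of 487 cells), a ratio of 2.59 (2.35 to 2.86). The share of cells over this limit thus differed between the libraries. In all TAL-like cells 7.87% of 11228 genes were at least 2-fold higher, and the share within this split is not given here. The limit is a count of UMIs, which rises with depth. How many of the 41 ischemia TAL-like cells with 10 or more Nampt UMIs lay over it is not given either. TAL-like cells under this limit were at 61.4 and 68.3 CPM, a ratio of 1.11 (0.941 to 1.32). The split by Cldn16, known mainly from the cortical part, gave 63.1 and 75.3 CPM in the 62 and 33 cells at or over 5 UMIs.

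In thin limb-like cells Nampt also sat in a few cells, since 13 control and 7 ischemia cells with 10 or more UMIs held 290 of 430 and 216 of 356 UMIs. Without these cells, picked by the gene itself, the level was 105 CPM in control and 61.5 CPM in ischemia. A split by Fst, a marker in the thin limb list, made after the values were seen, gave 417 and 268 CPM in the 29 and 20 cells with at least 10 Fst UMIs. In the other cells the levels were 75.2 and 49.9 CPM. The ratio was thus below 1 on both sides of the split, at 0.644 (0.547 to 0.758) and 0.664 (0.488 to 0.903).

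**Figure D4:**
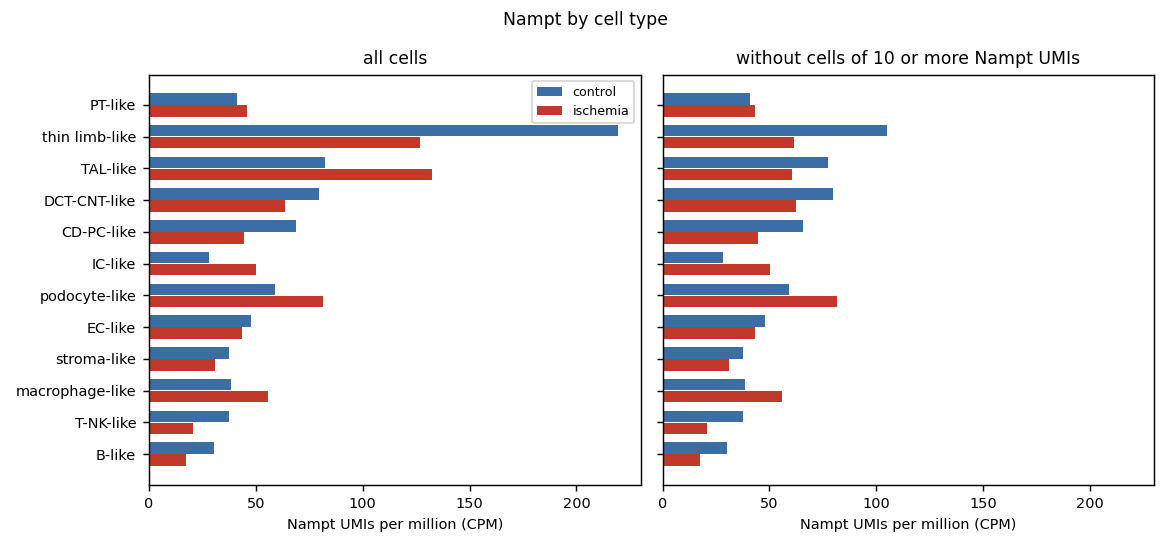
Nampt in CPM (x axis, linear from 0) by cell type (y axis) in control (blue) and ischemia (red), for all cells (left) and without cells of 10 or more Nampt UMIs (right), in types with at least 30 cells in each library. In TAL-like cells the red bar is longer on the left and shorter on the right, and in thin limb-like cells it is shorter on both sides.

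Naprt and Nmnat1 had ratios on opposite sides of 1 in the distal segments. Naprt had ratios of 1.34 (1.04 to 1.73) in TAL-like, 1.62 (1.17 to 2.25) in DCT-CNT-like and 1.41 (1.07 to 1.87) in CD-PC-like cells. Nmnat1 had ratios of 0.575 (0.430 to 0.765), 0.544 (0.388 to 0.754) and 0.683 (0.509 to 0.913) in the same types. Neither reached 2-fold in any. Of the de novo enzymes, Afmid had the most control UMIs in CD-PC-like (91) and DCT-CNT-like (78) cells. Its ratios there were 0.883 (0.655 to 1.19) and 0.791 (0.546 to 1.14). In control TAL-like cells Afmid had 36 UMIs and Kynu 47.

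Low counts of PT genes in other types can be free or mixed-in PT RNA, which would keep its genes in 1 ratio if drawn evenly from PT-like cells. As a measure, the summed 12 PT markers were at 23.2% of their PT level in control EC-like cells (endothelial) and 8.28% in control TAL-like cells. Against this, Haao in EC-like cells was at 27.8% of its PT level and Kmo at 22.1%, which is 1.20 (0.912 to 1.55) and 0.953 (0.710 to 1.25) times the panel. In TAL-like cells Haao was at 6.87% and Kmo at 6.18%, 0.829 (0.558 to 1.19) and 0.746 (0.503 to 1.07) times the panel. These levels were within counting error of the panel. Kynu lay somewhat above it in control, at 1.34 (1.004 to 1.74) times the panel in EC-like and 1.55 (1.14 to 2.07) in TAL-like cells. Among PT-like clusters of the control library Kynu itself ranged from 12.9 CPM in cluster 1 to 44.7 CPM in cluster 5. The part of this range in its place against the panel was not tested. Afmid was further above the panel in control CD-PC-like cells, at 31.7% of its PT level, 5.02 times the panel there (4.03 to 6.19). In control TAL-like cells Afmid was within counting error of the panel, at 1.37 (0.960 to 1.91) times it.

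Several de novo enzymes were past 2-fold lower outside PT, beside lower PT markers in the same cells. Haao (0.418), Kynu (0.231) and Kmo (0.446) were lower in EC-like cells, where 3.31% of 11049 genes were at least 2-fold lower, and the summed PT markers there went from 3320 to 1469 CPM. In TAL-like cells Kynu (47 and 18 UMIs, 0.313) was past 2-fold too, and the PT markers went from 1186 to 492 CPM. The part of PT RNA in these ratios was not tested. Nadsyn1 in TAL-like cells, at 7.19 and 3.18 CPM (74 and 40 UMIs), fell past 2-fold, with a ratio of 0.442 (0.293 to 0.659), where 7.63% of 11228 genes did. The other types with at least 50 Nadsyn1 UMIs stayed within 2-fold, as EC-like cells had a ratio of 0.717 (0.470 to 1.09), DCT-CNT-like cells one of 1.02 (0.662 to 1.56) and CD-PC-like cells 0.952 (0.621 to 1.46); the difference between types was not tested.

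Macrophage-like cells carried de novo enzymes above that background. In control Haao was at 43.5 CPM (78 UMIs), level with its PT-like cells at 42.5 CPM, and Kmo at 32.9 CPM (59 UMIs). This was 6.20 (4.89 to 7.77) and 4.23 (3.21 to 5.47) times the panel. Both fell past 2-fold in the ischemia library, Haao to 15.6 CPM (ratio 0.357, 0.259 to 0.493) and Kmo to 14.8 CPM (0.450, 0.317 to 0.641), where 4.74% of 9120 genes were at least 2-fold lower. Kynu was at 13.9 and 14.8 CPM, a ratio of 1.06 (0.670 to 1.74).

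Macrophage-like cells held cells with dendritic genes. A split on Flt3, Clec9a, Xcr1, Cd209a and Siglech, genes of dendritic cells, was made after the values were seen, and 54 of 288 control and 55 of 587 ischemia cells held at least 1 such UMI. Kmo was at 81.3 CPM in these control cells and 96.5 CPM in these ischemia cells, a ratio of 1.19 (0.766 to 1.85). In the other macrophage-like cells Kmo was at 16.5 and 5.37 CPM, a ratio of 0.326 (0.178 to 0.604). Kynu was at 41.8 and 85.8 CPM in the dendritic-gene cells (19 and 48 UMIs, ratio 2.05, 1.18 to 3.70) and at 4.49 and 6.61 CPM in the others. Haao was lower after ischemia in both, at 0.406 (0.185 to 0.845) and 0.368 (0.255 to 0.534). The shares of all genes past 2-fold within the 2 sides of this split are not given here, so these ratios have no background beside them. Cells with such a UMI were about as many in both libraries and so a smaller share of the ischemia macrophage-like cells, whose median depth was 8549 UMIs against 5559.5 in control. The part of this mix in the ratios of the whole type was not tested.

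B-like cells, 40 in control and 49 in ischemia, also held Kynu and Haao above the panel on few UMIs. Kynu had 13 and 25 UMIs, at 78.8 and 87.5 CPM, 11.3 (5.98 to 19.3) and 15.1 (9.72 to 22.4) times the panel. Haao had 12 and 17 UMIs, 8.70 (4.49 to 15.2) and 7.48 (4.35 to 12.01) times the panel. No ratio between libraries was read from them, since each gene was under 50 UMIs.

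**Figure D5:**
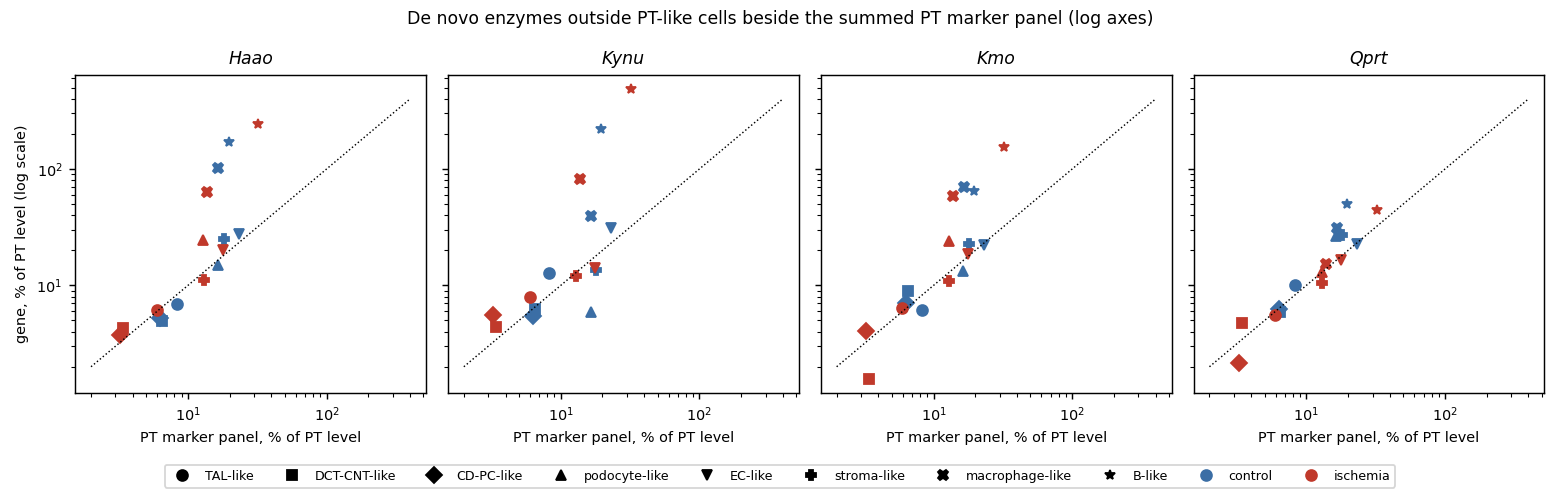
Level of 4 de novo enzymes in 8 types outside PT as a percent of their level in PT-like cells (y axis, log scale) against the same percent for the summed PT marker panel (x axis, log scale), for control (blue) and ischemia (red), without intervals and without points of 0 UMIs. Points on the dotted line are at the panel level; macrophage-like and B-like points for Haao, Kynu and Kmo lie above it, and the points of most other types scatter about it.

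The unnamed clusters held member RNA too. In cluster 0 Kynu had a ratio of 0.464 (0.313 to 0.679), past 2-fold, where 2.08% of 9946 genes were at least 2-fold lower, and Qprt had one of 1.60 (1.31 to 1.94). In cluster 4 Haao was past 2-fold lower, at 0.452 (0.222 to 0.866), where 4.38% of 8560 genes were. Nampt was above control in both, at 1.30 (1.12 to 1.52) and 1.32 (1.13 to 1.54). In control the summed PT markers were at 70.8% of their PT level in cluster 0 and 17.9% in cluster 4. Haao in cluster 0 was 0.994 (0.848 to 1.16) times this panel, Kynu 0.614 (0.492 to 0.757) and Qprt 1.18 (1.01 to 1.38). In cluster 4 Haao was at 17.9% of its PT level, within counting error of the panel. Nampt was above the panel in both, at 1.73 (1.53 to 1.95) and 9.01 (8.03 to 10.1) times it. The part of PT RNA in the ischemia ratios was not tested.

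Nnmt was found mainly in stroma-like and EC-like cells. Its UMIs numbered 25 in control and 113 in ischemia, over all kept cells. In stroma-like cells it was at 13.5 CPM in control (14 UMIs) and 13.6 CPM in ischemia (25 UMIs). Thin limb-like cells held it at 1.02 CPM (2 UMIs) and 3.91 CPM (11 UMIs), and their summed stroma markers went from 48.5 to 561 CPM. In EC-like cells it rose from 1.60 CPM (8 UMIs) to 7.94 CPM (53 UMIs), a ratio of 4.95 (2.34 to 12.1), where 1.91% of 11049 genes were at least 2-fold higher. The summed stroma markers were at 57.3 and 59.9 CPM in these EC-like cells, and no single EC-like cell held more than 4 Nnmt UMIs. Nnmt was the only member past 2-fold higher in any type compared, but EC-like cells were the only type where it was compared. Elsewhere it was under the minimum of 50 UMIs in both libraries together. In EC-like cells it passed this minimum mainly through the 53 ischemia UMIs, beside 8 in control. Its entry into the comparison thus leaned on its higher count after ischemia, and its direction in other types was not tested.

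The wider pathway was read from 47 genes in 6 lists, of which 46 were matched and 35 had at least 50 UMIs in PT-like cells. Of these, 4 were at least 2-fold higher and 4 at least 2-fold lower, beside 6.88% and 3.86% of all genes tested in these cells. In the de novo and kynurenine branch list, 2 of 5 tested were lower and none higher, with a median log2 ratio of -0.995. Ido2, an enzyme that opens tryptophan, fell from 163 to 17 UMIs, a ratio of 0.110 (0.0626 to 0.182). Acmsd, which diverts the intermediate away from quinolinate and so from NAD, fell from 178 to 67.3 CPM, a ratio of 0.377 (0.365 to 0.390).

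The list of nicotinamide oxidation and nicotinate uptake had 2 of 2 tested lower. These were Slc22a13 at 0.137 (0.0882 to 0.205) and Slc5a8, a carrier of nicotinate and other monocarboxylates, at 0.474 (0.445 to 0.506). Among the other salvage and adenylyltransferase genes 1 of 4 tested was higher, Nt5e at 2.28 (2.14 to 2.43), the ecto-nucleotidase CD73. Nmrk1 (1.24), Pnp (1.10) and Nmnat3 (0.961) stayed within 2-fold.

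Of the NAD-consuming enzymes, 3 of 17 tested rose and none fell, with a median log2 ratio of 0.25 beside 0.11 for all genes tested, of which 6.88% were higher and 3.86% lower. Parp14 was at 3.93 (3.14 to 4.95), Parp3 at 2.13 (1.99 to 2.28) and Parp12 at 2.05 (1.63 to 2.58). Parp1 was at 1.22 and Sirt3, the mitochondrial sirtuin, at 0.598. Of the regulators none of 4 passed 2-fold in PT-like cells, with Ppargc1a (PGC-1α, a coactivator tied to de novo NAD synthesis in tubules) at 0.685 and Hnf4a at 0.705. Outside PT, 3 of the 4 regulators fell past 2-fold in TAL-like, thin limb-like, DCT-CNT-like and CD-PC-like cells and in cluster 4, not the same 3 in each, and 1 of 4 did in EC-like and in macrophage-like cells, a result picked out after its values were seen. At least 2-fold lower were 6.6% of genes in thin limb-like, 5.05% in DCT-CNT-like and 4.47% in CD-PC-like cells. In TAL-like cells Ppargc1a went from 391 to 87.3 CPM (0.223, 0.209 to 0.239), Esrra had a ratio of 0.269 (0.228 to 0.316) and Ppara one of 0.425 (0.342 to 0.526). In TAL-like cells 7.87% of genes were at least 2-fold higher and 7.63% at least 2-fold lower.

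Likeness was taken as Pearson r of log2(CPM + 1) over 25 points, the named types in each library with at least 30 cells, among 14315 genes with at least 200 UMIs. The points share 2 libraries, their depths and any PT RNA mixed into other types, so r is a description. Haao and Kmo were each other's nearest gene, at 0.929, and Kynu's nearest genes were Kmo (0.856) and Haao (0.846). Nearest to Haao after Kmo were Acp5 (0.887) and Acot4 (0.878), and to Kmo after Haao were Gatm (0.901) and Snx8 (0.892). Qprt was nearest to Cgref1 (0.922), Clrn3 (0.921) and Slc2a2 (0.919), and its r was 0.822 with Haao and 0.809 with Kmo. Kynu's other gene was Olfm3 (0.844).

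No other member was among the 3 genes nearest to the remaining members. Nmnat1 was nearest to Metap1d (0.943), Aldh16a1 (0.890) and Pigq (0.886), and Naprt to Aldh16a1 (0.860), Dgkq (0.846) and Chmp6 (0.835). Nampt had the lowest first value of this group, with Mok at 0.800, then Gm26569 and Scx at 0.788 each. Nadsyn1 was nearest to Gm4450 (0.823), Erich4 (0.820) and Glb1l (0.818), and Afmid to Fitm1 (0.841), Gm14161 (0.815) and Trim7 (0.776). Nnmt, with 138 UMIs in all, was under the minimum.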

How the data were processed

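Single cells of digested kidneys were measured by the 10x 3' protocol. Per the submitters' processing notes, the authors made the deposited matrices of UMI counts with Cell Ranger 7.0.0 on mm10, without normalization. Whether intronic reads were counted is not given in the sources used here. A cell was kept if it had 200 genes or more, a UMI total from 500 to 150000 and no more than 55% mt- UMIs. They were clustered in Seurat 5.3.0 (R 4.3.3; 2000 variable genes, anchor integration, 30 components, resolution 0.3) with the members and pathway genes held out of the variable genes. Clusters were named from markers, with a lead of 0.5 log2 over the second list. The best list also needed at least 3 markers with 10 UMIs. At least 1 of its genes had to be among the cluster's 10 top genes, and more than of any other list. Counts were summed by cluster name and library, and divided by the total. Ratios carry exact conditional binomial intervals, and genes with at least 50 UMIs in both libraries together were compared. Doublets were not removed: Scrublet called 0 in each library at its automatic threshold, and was not used further as a caller. No replicate exists, so no p-value was computed.

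Members and lists were chosen with earlier results of these data known. The naming lead, motifs, gates and the limit of 10 Nampt UMIs were set after values were seen. The text names all 10 members, the 3 genes most like each by r, and the pathway genes past 2-fold in PT-like cells with others for context. Counting scripts were tested on simulated data. One pathway gene, Nnt, is listed under 2 identifiers and was not used.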

Additional observations from a re-analysis of the deposited data

Results flagged for a closer look

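Nampt moved in opposite directions in cell types under the same contrast, which is why these results are listed. Its ratio of ischemia to control was highest in IC-like cells, at 1.78 (1.10 to 2.92), and lowest in thin limb-like cells, at 0.577 (0.4999 to 0.665). Of the named types compared, 4 had an interval above 1 and 3 an interval below 1. Several of these sides depended on the processing. Over all settings run, the lowest ratio was 0.976 in PT-like, 0.781 in TAL-like and 0.849 in IC-like cells, and 1.34 in macrophage-like cells. The highest ratio was 1.23 in DCT-CNT-like cells, but 0.589 in thin limb-like and 0.677 in CD-PC-like cells. With 1 library in each condition, the difference between types was not tested. The IC-like value rests on 31 and 45 UMIs, and the summed TAL markers in these cells went from 557 to 2009 CPM. It may not stand for all intercalated cells, since CD-PC-like cells, at a Nampt ratio of 0.646, also carried intercalated markers. In thin limb-like cells the summed stroma markers went from 48.5 to 561 CPM and the urothelium markers from 235 to 0 CPM.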

How the results depend on the processing

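No paired analysis was possible because each condition had 1 library. The Scrublet alternative gave no value, since no cell was called. In PT-like cells 0 members were past 2-fold higher under every setting run. The number past 2-fold lower, 0 as reported, was 1 (Kynu) with a mitochondrial limit of 25%, with a minimum of 1000 UMIs, at resolution 0.6, with mt- UMIs left out of the totals, and without the 5 cells with the most UMIs of the member. It was 2 (Kynu and Kmo) after division by the median ratio of all genes. Over 46 pairs of member and named type, 1 was past 2-fold higher and 7 lower. Of all gene and type pairs tested in named types, 5.21% were at least 2-fold higher and 4.56% at least 2-fold lower. The higher count was 4 with the mean over cells of each cell's CPM. The lower count was 11 with a minimum of 1000 UMIs and at resolution 0.6, and 4 when the 8% of each library scoring highest for doublets was left out, a setting chosen after seeing the data. The causes of these shifts were not tested. Of 476 values under the other settings, 427 stayed within the counting interval and 49 moved further, and 23 changed their side of 1. Medians of all genes were off 0 by more than 0.1 on the log2 scale in PT-like (0.11), TAL-like (0.10), macrophage-like (0.11), stroma-like (0.11), T-NK-like (0.12) and B-like (0.23) cells and in clusters 0 (0.28) and 4 (0.14), and members' ratios there are to be read against them. Depth limits the types with few cells or UMIs: IC-like, podocyte-like, stroma-like, T-NK-like and B-like cells had under 100 UMIs of every member in each library. So did neutrophil-like cells, which were left out of ratios.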
